A study of Mus musculus with 10 samples.

Results

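The genes described here are 38 enzymes, transporters and regulators through which mitochondria and peroxisomes oxidise fatty acids, compared between hypertrophied hepatic stellate cells (hypHSCs) of the steatotic, fibrotic mouse liver and quiescent hepatic stellate cells (qHSCs) of the healthy one. They were found by their gene symbols among the 25233 genes with a symbol in the deposited table, and comprise 23 mitochondrial genes, 11 peroxisomal genes and 4 long-chain acyl-CoA synthetases. Stellate cells are the vitamin A storing cells that lie beside the liver sinusoids, and the question asked by the comparison was how the transcriptome of hypHSCs differs from that of qHSCs. All mice were C57BL/6J. The 5 hypHSC libraries came from mice fed the CDAHFD, a high-fat diet without choline and with little methionine that produces steatohepatitis and fibrosis, for 13 weeks (hypHSC 1 and 2, age 19 weeks) or 12 weeks (hypHSC 3, 4 and 5, age 18 weeks). The 5 qHSC libraries came from mice on a standard diet, aged 36 weeks (qHSC 1, 2 and 5) or 34 weeks (qHSC 3 and 4). hypHSCs were sorted on green and qHSCs on blue fluorescence after different digestions, so that diet, age, digestion and gate cannot be told apart in any difference given below. The hypHSC preparations were those with the best RNA among many preparations from fewer mice, and the mouse behind each library is not named, so that n counts preparations and p-values measure only the spread between them.

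Fatty acids are first joined to coenzyme A by acyl-CoA synthetases. Long chains then enter mitochondria as carnitine esters, through carnitine palmitoyltransferase 1 (CPT1) of the outer membrane, a translocase, and CPT2 of the inner membrane. Inside, each turn of beta-oxidation removes an acetyl-CoA by dehydrogenation, hydration, a second dehydrogenation and thiolysis, and the electrons of the first step reach the respiratory chain through the electron transfer flavoprotein. Peroxisomes run a similar sequence on very long and branched chains, which are imported by ABC transporters of the D family, and pass shortened chains on to mitochondria. Stellate cells keep retinyl esters and triglycerides in lipid droplets, and their use of these stores as fuel is a known part of stellate cell activation.

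Each value below is a normalized count, that is, the number of reads on a gene divided by a DESeq2 size factor of its library. Reads on genes with a symbol numbered 30534719 to 43283589 in hypHSCs and 35640104 to 47317028 in qHSCs, and 3 reads, below which a gene is not distinguished from 0 here, equal 2.25 to 4.54 normalized counts, which allows for counting error alone. The libraries labelled hypHSC carried 1020940 to 1254840 normalized counts summed over 11 macrophage markers, against 3644 to 87015 in qHSCs, and 29179 to 53101 summed over 10 markers of quiescent stellate cells, against 1153920 to 1972920 in qHSCs. *Lrat*, which makes the retinyl esters of stellate cells, had 1593 ± 709 in hypHSCs and 105815 ± 23988 in qHSCs (mean ± SD, n = 5), and *Lyz2*, a lysozyme of macrophages, had 845672 ± 76695 and 10586 ± 12434. The name hypHSC is used here as the label of these sorted cells, and the part that macrophage RNA has in the results was not tested. hypHSC 5 stood apart, with the fewest genes detected (14028, against 14949 to 16634 in the other hypHSC libraries) and the highest sum of 12 hepatocyte markers (235628, against 14405 to 95000 in the other hypHSCs and 29247 to 115762 in qHSCs), and results that rest on it are also given without it. hypHSC 1 and 2 differed in another way. Of their reads, 12.8% and 7.27% fell on the mitochondrial genome, against 2.21% to 3.42% in the other hypHSCs and 1.25% to 1.61% in qHSCs. Entries without a symbol took 29.1% and 20.1% of their reads, against 10.8% to 13.2% and 8.98% to 10.2%. The part of this in the results was not tested.

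All 38 genes passed the filter on low values (5 or more libraries with 10 or more normalized counts), and 10 of them (26.3%) were differentially expressed genes (DEGs). A DEG needed a log2 fold change of 1 or more in either direction together with an adjusted p no higher than 0.05. Here the test was limma on log2(normalized count + 1) with Benjamini-Hochberg adjustment over all 14630 genes tested, of which 39.5% were DEGs, 17.8% higher and 21.7% lower in hypHSCs. The share of DEGs among the fatty acid oxidation genes was below that among all genes with this scaling and above it when libraries were scaled on *Hprt*, *Pgk1* and *Actb* (25 of the 38, against 8462 of 14630), and the difference was not tested. *Ucp2* and *Abcd2* rose in hypHSCs, while *Acaa2*, *Pdk4*, *Decr2*, *Cpt2*, *Acat1*, *Acadvl*, *Acsl4* and *Acsl5* fell. Another 6 genes met the criterion on p with a smaller fold, lower for *Etfdh*, *Eci2*, *Acad9*, *Decr1* and *Hadhb* and higher for *Acaa1a*. Of all 14630 genes tested, 600 lower and 640 higher ones did so, and the difference was not tested. The median log2 fold change, hypHSCs over qHSCs, was -0.53 over the 38 genes and -0.20 over all genes tested, and 25 of the 38 values lay below 0. The size of these medians depended on the method. By DESeq2 they were -0.16 and -0.05 (24 of the 38 below 0), and by edgeR -0.10 and -0.0015 (20 of the 38). Without hypHSC 5 they were -0.28 and -0.12, and with scaling on *Hprt*, *Pgk1* and *Actb* -1.47 and -1.12. The difference between the medians was not tested. By place, 1 mitochondrial gene rose and 5 fell of 23 (median -0.48), 1 peroxisomal gene rose and 1 fell of 11 (median -0.56), and 2 of the 4 synthetases fell (median -0.82; 1 by DESeq2 and 0 by edgeR). All libraries of one group lay above all of the other in 2 genes higher in hypHSCs and 12 lower, where 17.6% and 22% of all genes tested were separated in these directions. In bulk samples, fewer cells of a type and less RNA per cell cannot be told apart.

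**Figure D1:**
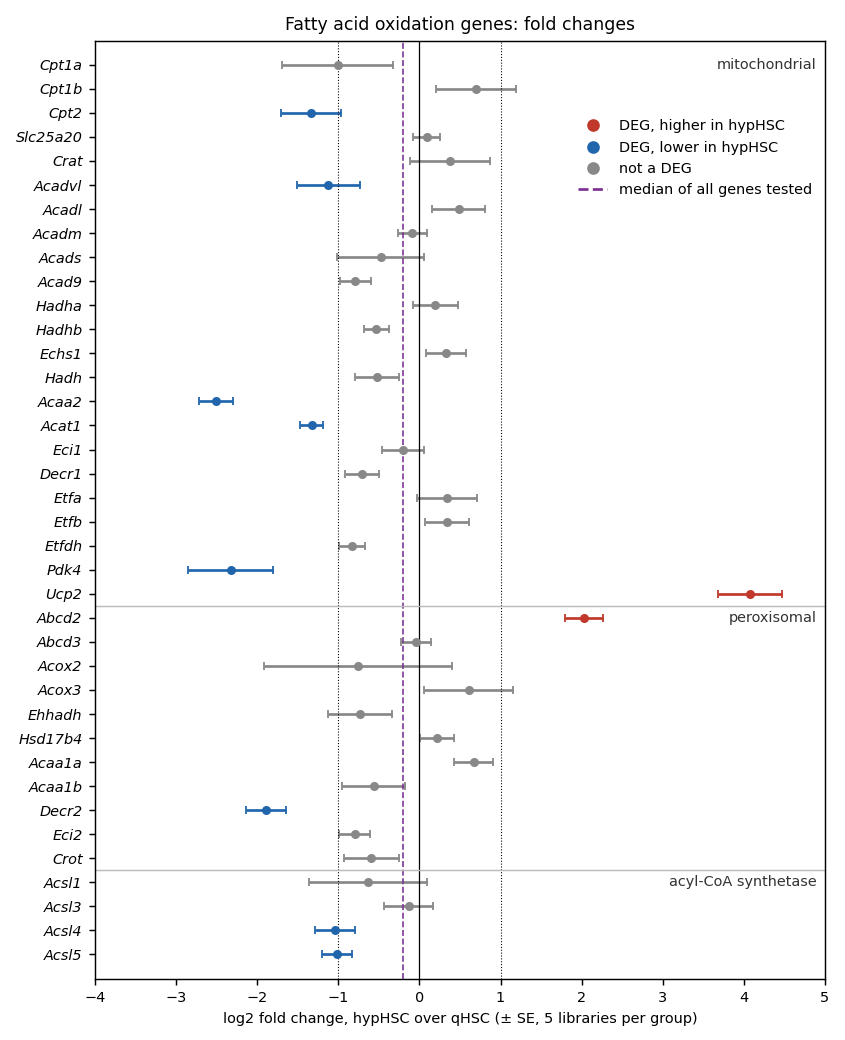
Log2 fold change of each of the 38 fatty acid oxidation genes, hypHSCs over qHSCs, with the standard error from limma as bars (5 libraries per group); dotted lines mark the fold change threshold of 1, and the dashed line the median of all genes tested, -0.20. *Ucp2* (4.08) and *Abcd2* (2.03) are the 2 red points of the DEGs higher in hypHSCs, and *Acaa2* (-2.51) lies lowest of the 8 blue ones.

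The largest change of the 38 genes was that of *Ucp2* (chromosome 7, 100142564 to 100151380, GRCm39), which encodes a carrier of the inner mitochondrial membrane. Its name is uncoupling protein 2, and it is best known for moving metabolites and for its links to oxidant production. It had 22323, 33182, 26728, 17031 and 14444 normalized counts in hypHSC 1 to 5 and 2129, 749.8, 1022, 2799.8 and 764 in qHSC 1 to 5. Every hypHSC library lay above every qHSC library, and the log2 fold change was 4.08 (SE 0.39, adjusted p = 1.12e-05) from limma, or 16.9-fold. Among qHSCs, *Ucp2* was highest in qHSC 4 and qHSC 1, which also had the highest sums of macrophage markers of this group, 87015 and 41347 against 3644 to 8132 in the other qHSC libraries. Without these 2 libraries its log2 fold change was 4.70 (adjusted p = 4.48e-06 from limma), in a fit added after the data had been seen. Leaving out the qHSC libraries with most *Ucp2* raises its fold in any case. Of the 11 macrophage markers 9 were higher DEGs (7 by DESeq2), none was at 0 in all libraries of a group, and their part in the rise of *Ucp2* was not tested. A neighbouring gene, *Dnajb13*, overlaps 14.9% of the annotated exon bases of *Ucp2*, and reads on the overlap cannot be assigned by strand, but *Dnajb13* itself had only 140.2 ± 45.4 normalized counts in hypHSCs and 66.6 ± 39.7 in qHSCs.

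The opposite change was found in *Pdk4* (chromosome 6, 5483351 to 5496310), whose kinase switches off pyruvate dehydrogenase and so favours fatty acids as fuel. It had 78.2, 87.0, 22.4, 46.2 and 22.7 normalized counts in hypHSC 1 to 5 and 259, 383, 92.9, 196 and 315 in qHSC 1 to 5. The groups did not overlap, but the highest hypHSC library, hypHSC 2, lay just below qHSC 3, the lowest qHSC library. *Pdk4* fell by 2.33 on the log2 scale in hypHSCs (SE 0.52, adjusted p = 0.00365 from limma). *Ucp2* and *Pdk4*, grouped here as the genes of fuel switch and uncoupling, changed in opposite directions. The 250 bases before their start sites are therefore shown, as given by RefSeq on GRCm38.p6. This is an earlier build than the GRCm39 of the gene positions in this text. Capitals mark the GC box GGGCGG and the box named CCAAT after its letters, on either strand. A TATA box was searched for in the same way by the letters TATAAA.

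*Ucp2* promoter, chr7:100493108-100493357, plus strand: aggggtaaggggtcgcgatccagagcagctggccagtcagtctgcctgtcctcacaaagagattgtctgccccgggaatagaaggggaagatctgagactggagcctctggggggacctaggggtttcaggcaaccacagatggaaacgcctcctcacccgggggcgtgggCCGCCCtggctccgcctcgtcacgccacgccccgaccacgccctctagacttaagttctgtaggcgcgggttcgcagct

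*Pdk4* promoter, chr6:5496279-5496528, minus strand: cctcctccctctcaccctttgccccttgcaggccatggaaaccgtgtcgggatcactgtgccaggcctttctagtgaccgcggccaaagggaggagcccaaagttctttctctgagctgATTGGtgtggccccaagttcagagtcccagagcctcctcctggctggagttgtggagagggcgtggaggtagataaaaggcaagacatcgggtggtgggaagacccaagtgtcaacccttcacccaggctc

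The *Ucp2* window held 1 GC box and had a GC content of 63.6%, and the *Pdk4* window held 1 CCAAT box and had 58.8%. Neither held a TATA box. RefSeq windows of the same kind were matched for 30 of the 38 genes, some with more than 1 start, giving 33 windows among 32851 in all. A GC box stood in 20 of the 33 (60.6%, against 32.7% of all windows), a CCAAT box in 15 (45.5% against 33.8%) and a TATA box in 0 (12.4% of all). The motif of estrogen-related receptors, TCAAGGTCA, was found in 0 of the 33 and in 0.387% of all windows, and the E-box CACGTG in 0 and 6.02%. Pairs of AGGTCA spaced by 1 base, the arrangement bound by PPAR and RXR receptors, were sought with at most 2 mismatches, and stood in the windows of *Echs1* and *Etfa* (6.06% against 3.24% of all). All motifs were searched on both strands, and these matches describe the letters only. Neither *Echs1* nor *Etfa* was a DEG.

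**Figure D2:**
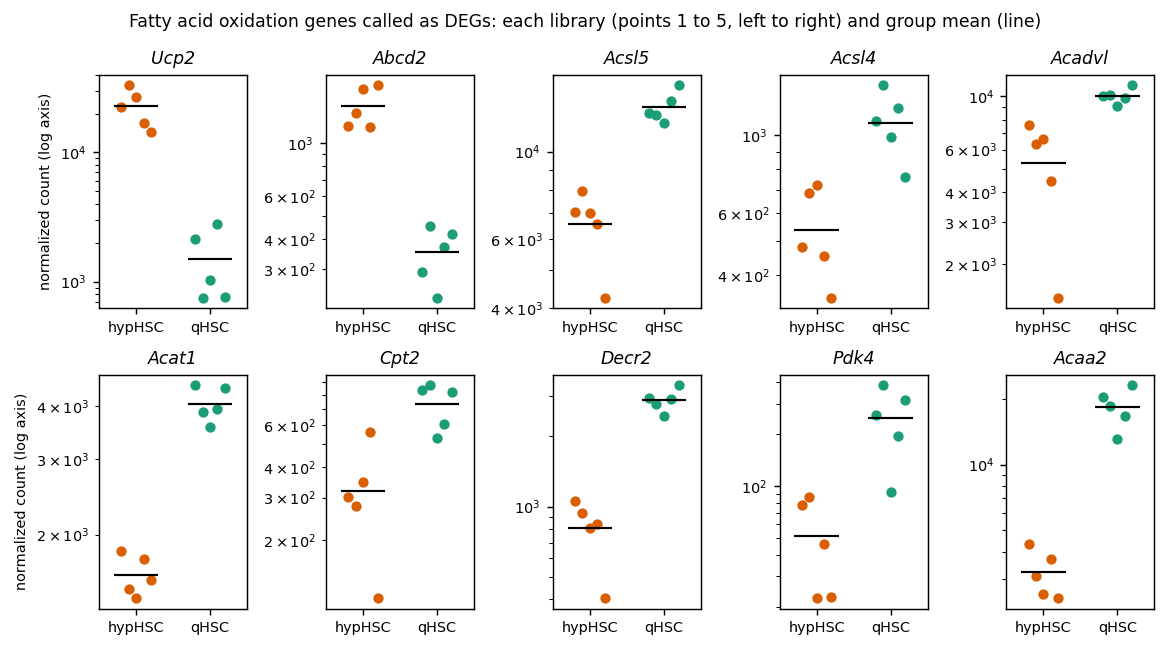
Normalized counts of the 10 fatty acid oxidation DEGs in each library on log axes, with libraries 1 to 5 of each group from left to right and the group mean as a line. Groups overlap only in *Cpt2*, where hypHSC 4 lies above qHSC 3, and hypHSC 5 is the lowest library in *Acaa2*, *Acadvl*, *Acsl5*, *Acsl4*, *Decr2* and *Cpt2*.

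In the carnitine shuttle, *Cpt2* fell and the genes of the entry step did not pass the test. *Cpt1a* (chromosome 19, 3372331 to 3435734), the liver form of CPT1 and the main point of control of the pathway, had 450.1, 804, 876, 365 and 46.9 normalized counts in hypHSC 1 to 5 and 1226, 825, 534, 652 and 519 in qHSC 1 to 5. hypHSC 5 was far below every other library, and the remaining libraries of both groups overlapped. The log2 fold change of *Cpt1a* was -1.01 (SE 0.69, adjusted p = 0.248), and -0.29 (adjusted p = 0.494) without hypHSC 5. *Cpt1b* (chromosome 15, 89300608 to 89310068), the muscle form, had 53.9, 99.4, 93.1, 31.5 and 33.3 in hypHSC 1 to 5 and 21.7, 54.5, 53.5, 24.0 and 29.2 in qHSC 1 to 5, with overlapping groups and a log2 fold change of 0.70 (SE 0.50, adjusted p = 0.269). Its counts are uncertain, since 52.0% of its stretches of 59 bases, the read length, also occur in another annotated gene, Gm44502, which is not analysed here. *Cpt2* (chromosome 4, 107761177 to 107780786) had 300.5, 277, 348, 560.2 and 115 in hypHSC 1 to 5 and 838, 873, 529, 605 and 822 in qHSC 1 to 5. Only hypHSC 4 reached into the range of the qHSCs, and the log2 fold change was -1.33 (SE 0.37, adjusted p = 0.0117) from limma. The call of *Cpt2* held in all 10 fits that left out 1 library, with values of -1.58 to -1.01, and was lost without qHSC 1 and qHSC 4 (-1.34, adjusted p = 0.0517).

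The translocase gene *Slc25a20*, which exchanges acylcarnitine for carnitine across the inner membrane, was nearly level, at 1041 ± 111 normalized counts for hypHSCs and 981 ± 145 for qHSCs (mean ± SD, n = 5). Its log2 fold change was 0.09, with a 95% interval of -0.27 to 0.45. *Crat*, which makes short-chain carnitine esters, ranged over 107 to 787 in hypHSCs and 254 to 508 in qHSCs, and the log2 fold change came to 0.37 (SE 0.49, adjusted p = 0.558). Without hypHSC 5, its lowest library, the value was 0.88 (adjusted p = 0.00975).

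Of the 5 acyl-CoA dehydrogenases, which make the first double bond, *Acadvl* for the longest chains was the DEG. *Acadvl* (chromosome 11, 69901009 to 69906254) had 7616, 6343, 6615, 4425 and 1452 normalized counts in hypHSC 1 to 5 and 10032, 10098, 9134, 9836 and 11115 in qHSC 1 to 5. The groups did not overlap, but hypHSC 5 lay far below the other hypHSCs. *Acadvl* fell by 1.12 on the log2 scale (SE 0.39, adjusted p = 0.0321 from limma). This call rests on a fold close to the threshold: the value was -0.71 (adjusted p = 0.00404) without hypHSC 5 and -0.92 (adjusted p = 0.0289) with DESeq2 on the recovered reads, and 12 of 26 alternatives lost the call, among them 7 of the 10 fits without 1 library. The exons of *Dvl2* overlap 38.2% of the exon bases annotated for *Acadvl*, but *Dvl2* held only 23.6 ± 17.2 (hypHSCs) and 21.1 ± 7.85 (qHSCs) normalized counts. *Acadm* (chromosome 3, 153627990 to 153650280), for medium chains, had 3539.9, 2664, 2723, 3496 and 4722 in hypHSC 1 to 5 and 4067, 3818, 3078, 3195 and 3746 in qHSC 1 to 5. The groups overlapped, and the log2 fold change of *Acadm* was -0.09, with a 95% interval of -0.49 to 0.32.

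*Acadl*, for long chains, ranged over 1060.3 to 3825 normalized counts in hypHSCs and 1097 to 1633 in qHSCs (log2 fold change 0.48 (SE 0.32, adjusted p = 0.238)), with its highest values in hypHSC 5 and hypHSC 4. *Acads*, for short chains, had the contrary pattern, with its lowest values in these libraries, and ranged over 80.2 to 794 in hypHSCs and 360.2 to 629 in qHSCs. Its log2 fold change was -0.48 (SE 0.54, adjusted p = 0.489), and 0.05 without hypHSC 5. *Acad9*, which also assembles complex I, was separated between the groups, 803 to 1214 in hypHSCs against 1253 to 2113 in qHSCs. Its log2 fold change of -0.79 (SE 0.19, adjusted p = 0.0052) did not reach the fold threshold.

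The trifunctional protein, which carries out the following steps on long chains, is built from the products of *Hadha* (chromosome 5, 30323302 to 30359979) and *Hadhb* (chromosome 5, 30360251 to 30389591), whose genes lie head to head. *Hadha* encodes the hydratase and dehydrogenase of the complex and had 5874, 5963, 5459, 3667 and 2016 normalized counts in hypHSC 1 to 5 and 3834, 3752, 3307, 4132 and 3626 in qHSC 1 to 5. hypHSC 1, 2 and 3 lay above all qHSCs and hypHSC 5 below them, and the log2 fold change was 0.20 (SE 0.28, adjusted p = 0.586). Without hypHSC 5 the value was 0.47 (adjusted p = 0.0329), short of the fold threshold. *Hadhb*, the thiolase subunit, had 1636, 1419, 1809.5, 1762 and 1209.99 in hypHSC 1 to 5 and 2358, 2453, 2062, 2065 and 2299 in qHSC 1 to 5. Every hypHSC library was below every qHSC library, with a log2 fold change of -0.53 (SE 0.16, adjusted p = 0.0155) that stayed short of the fold threshold. The ratio of *Hadha* to *Hadhb* counts was 3.59, 4.20, 3.02, 2.08 and 1.67 in hypHSC 1 to 5 and 1.63, 1.53, 1.60, 2.00 and 1.58 in qHSC 1 to 5. Its mean was 2.91 ± 1.05 in hypHSCs and 1.67 ± 0.190 in qHSCs (SD, n = 5; exact two-sided permutation test, p = 0.0159), and it was chosen for description after the values had been seen. Scaling of the libraries does not enter this ratio. The exons of *Garem2* overlap 21.3% of those annotated for *Hadha*, but *Garem2* was listed at 0 in every library.

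According to RefSeq on GRCm38.p6, *Hadha* starts on the minus strand and *Hadhb* on the plus strand with 272 bases between the starts. The windows of 250 bases before each start have 228 bases in common. The window before *Hadhb* is shown because it lies between the starts of both genes, with 2 GC boxes in capitals.

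*Hadhb* and *Hadha* promoter, chr5:30155003-30155252, plus strand: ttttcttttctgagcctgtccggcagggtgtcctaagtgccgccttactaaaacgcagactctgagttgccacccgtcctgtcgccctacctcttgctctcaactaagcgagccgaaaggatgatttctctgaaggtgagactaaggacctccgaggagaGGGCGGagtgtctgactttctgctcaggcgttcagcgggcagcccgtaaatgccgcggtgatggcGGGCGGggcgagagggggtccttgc

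Both soluble thiolases of the mitochondrial matrix fell. *Acaa2* (chromosome 18, 74912268 to 74939282), the thiolase of medium chains, had 4334, 3099, 2569.6, 3709.6 and 2456 normalized counts in hypHSC 1 to 5 and 20279, 18565, 13046, 16700.5 and 22952 in qHSC 1 to 5. No library of the hypHSCs came within 3 times of the lowest qHSC library. *Acaa2* fell by 2.51 on the log2 scale (SE 0.21, adjusted p = 4.07e-06 from limma), which is 5.69-fold lower, and remained called in all 26 alternatives. *Acat1* (chromosome 9, 53491822 to 53521655), which splits acetoacetyl-CoA and serves ketone and isoleucine metabolism too, had 1831, 1492, 1422, 1755 and 1569.96 in hypHSC 1 to 5 and 4462, 3873, 3568, 3934 and 4407 in qHSC 1 to 5. Its libraries were tightly grouped on either side, and *Acat1* fell by 1.33 on the log2 scale (SE 0.14, adjusted p = 2.03e-05 from limma). The remaining matrix enzymes, the hydratase *Echs1* (0.33, SE 0.25, adjusted p = 0.302) and the dehydrogenase *Hadh* (-0.52, SE 0.27, adjusted p = 0.129), were not DEGs, and *Echs1* was 0.55 (adjusted p = 0.0181) without hypHSC 5.

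Of the 4 enzymes that handle the double bonds of unsaturated chains, 2 in each organelle, *Decr2* was a DEG. In mitochondria, the isomerase *Eci1* had a log2 fold change of -0.21 (SE 0.26, adjusted p = 0.535) with overlapping groups, and the reductase *Decr1* had -0.71 (SE 0.21, adjusted p = 0.0155), with 557 to 1093 normalized counts in hypHSCs and 1149 to 1666 in qHSCs. Of the peroxisomal pair, the reductase *Decr2* (chromosome 17, 26300185 to 26309274) had 1058, 942, 807, 840.3 and 404 in hypHSC 1 to 5 and 2937, 2763, 2444, 2902 and 3314 in qHSC 1 to 5. The groups lay far apart, with hypHSC 5 lowest of all libraries, and *Decr2* fell by 1.89 on the log2 scale (SE 0.25, adjusted p = 9.31e-05 from limma) and by 1.66 without hypHSC 5. The isomerase *Eci2* had 899.9 to 1587 normalized counts in hypHSCs and 1811 to 2679 in qHSCs, also without overlap, and a log2 fold change of -0.80 (SE 0.19, adjusted p = 0.00495) below the fold threshold.

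None of the 3 electron transfer genes was a DEG. *Etfa* and *Etfb* encode the subunits of the flavoprotein, and *Etfdh* the oxidoreductase that passes its electrons to ubiquinone. *Etfa* had 4113, 3943, 3589, 8899.5 and 14102 normalized counts in hypHSC 1 to 5 and 4766, 4011, 3781, 4757 and 6531 in qHSC 1 to 5, and *Etfb* had 6302, 4025, 2806, 6108 and 8568 and 4219.5, 3489, 4001, 4159 and 4726. Both were highest in hypHSC 5, and without it their log2 fold changes went from 0.34 to 0.03 and from 0.34 to 0.16. *Etfdh* was lower in every hypHSC library (625 to 911) than in every qHSC library (1168 to 1364), with a log2 fold change of -0.84 (SE 0.16, adjusted p = 0.00129) that was again short of the threshold. *Etfb* shares 21.1% of its stretches of 59 bases with another annotated locus, Etfbl, not analysed here, so its level is uncertain.

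In peroxisomes, the import step changed in 1 of its 2 measured genes. *Abcd2* (chromosome 15, 91029881 to 91076210), an ABC transporter of very long-chain and polyunsaturated acyl-CoA, had 1174, 1334, 1685, 1171 and 1741 normalized counts in hypHSC 1 to 5 and 291, 453, 228, 369.7 and 418 in qHSC 1 to 5. All hypHSC libraries were above all qHSC libraries, and *Abcd2* rose by a log2 fold change of 2.03 (SE 0.23, adjusted p = 3.80e-05) from limma, or 4.09-fold. Among qHSCs the *Abcd2* counts were highest in qHSC 2 and qHSC 5, and without qHSC 1 and qHSC 4 the log2 fold change was 1.99. The part of macrophage RNA in the rise of *Abcd2* was not tested. *Abcd3* (chromosome 3, 121552553 to 121608951), which imports long branched chains and bile acid precursors and is an abundant protein of the peroxisomal membrane, had 841, 950.4, 886, 1077 and 1401 in hypHSC 1 to 5 and 1114, 1023, 831, 1153 and 1149 in qHSC 1 to 5. The groups overlapped, with hypHSC 5 above all qHSCs, and its log2 fold change was -0.05 with a 95% interval of -0.46 to 0.36.

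The 6 genes of the peroxisomal oxidation steps held no DEG by limma, DESeq2 or edgeR, and 1, *Acaa1a*, had an unadjusted p under 0.05 from limma. *Acox2*, the oxidase of branched chains and bile acid intermediates, varied from 1.51 to 143 normalized counts in hypHSCs and from 22.04 to 184 in qHSCs, and hypHSC 5 was below the floor of 3 reads. Its log2 fold change of -0.76 had an SE of 1.16, so that a change was not detectable at this spread. *Acox3*, the other oxidase of branched chains, ranged over 133 to 911 and 130.4 to 399 (log2 fold change 0.61 (SE 0.55, adjusted p = 0.387)). The bifunctional enzyme *Hsd17b4* (chromosome 18, 50261268 to 50329337) had 3813, 4327, 4230.3, 3995 and 2372 in hypHSC 1 to 5 and 3748, 3452, 2238, 3701 and 2906 in qHSC 1 to 5. These groups overlapped, and the log2 fold change was 0.22 (SE 0.21, adjusted p = 0.423). The second bifunctional enzyme, *Ehhadh*, which is abundant in hepatocytes, stayed low at 32.2 ± 9.62 in hypHSCs and 53.1 ± 11.6 in qHSCs (SD, n = 5; log2 fold change -0.73, adjusted p = 0.147). Of the peroxisomal thiolases, *Acaa1a* had a log2 fold change of 0.67 (SE 0.24, adjusted p = 0.0382) and *Acaa1b* of -0.56 (SE 0.39, adjusted p = 0.254). *Crot*, which attaches carnitine to shortened chains for export, had -0.59 (SE 0.34, adjusted p = 0.174).

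The acyl-CoA synthetases, which supply both organelles and also lipid synthesis, had log2 fold changes below 0 in all 4 genes, and 2 of them fell. *Acsl5* (chromosome 19, 55241800 to 55286152) was the most abundant, with 7037, 7963, 6985, 6537 and 4244 normalized counts in hypHSC 1 to 5 and 12513, 12402, 11808, 13474 and 14773 in qHSC 1 to 5. *Acsl4* (chromosome X, 141100989 to 141173531), which prefers arachidonate, had 481, 685, 721, 454 and 345 in hypHSC 1 to 5 and 1099.7, 1391, 989.6, 1195 and 762 in qHSC 1 to 5. Groups did not overlap in either gene, and hypHSC 5 was lowest in both. *Acsl5* fell by 1.01 (SE 0.18, adjusted p = 0.000857 from limma) and *Acsl4* by 1.04 (SE 0.25, adjusted p = 0.0052) on the log2 scale, so close to the threshold that the call of *Acsl5* was lost in 8 and that of *Acsl4* in 9 of 26 alternatives. Without hypHSC 5 the values were -0.86 and -0.89. *Acsl5* shares 37.3% of its exon bases with *Zdhhc6*, a gene with 1585 ± 439 (hypHSCs) and 1741 ± 253 (qHSCs) normalized counts. *Acsl1*, the main form of liver and fat, was low, with 86.2, 248, 157, 56.6 and 9.07 in hypHSC 1 to 5 and 95.3 to 136 in qHSCs, and hypHSC 5 lowest (log2 fold change -0.63 (SE 0.73, adjusted p = 0.501)). The *Acsl3* entry of the table is joined to *Utp14b*, and the genes cannot be told apart in its log2 fold change of -0.13 (SE 0.30, adjusted p = 0.74).

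**Figure D3:**
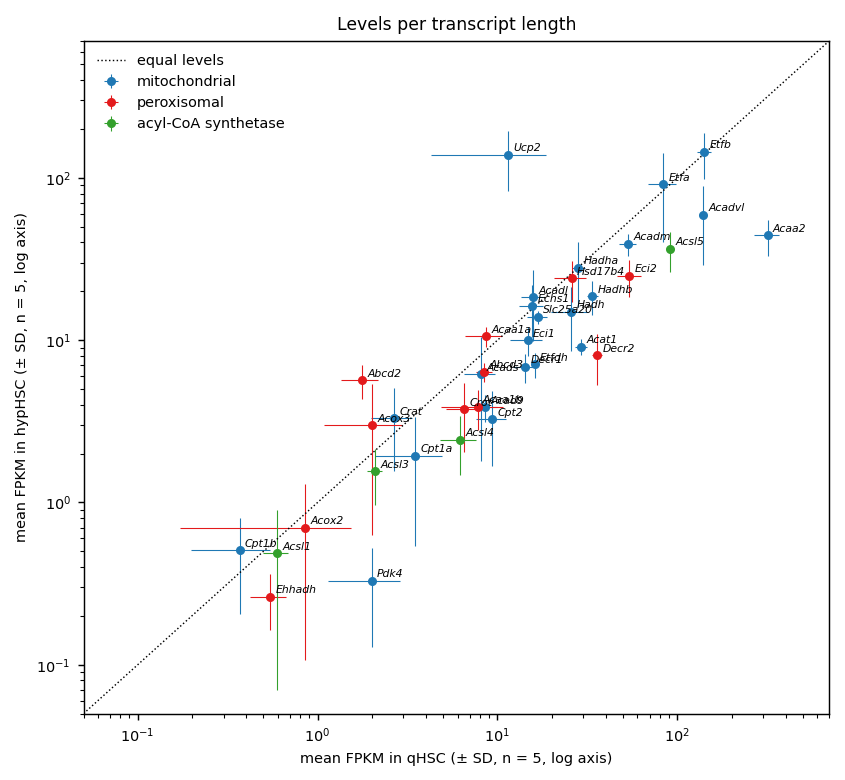
Mean FPKM of each of the 38 genes in qHSCs (x axis) and hypHSCs (y axis) on log axes, with SD over 5 libraries as bars and equal levels as a dotted line. *Ucp2* stands above the line at 139 in hypHSCs against 11.5 in qHSCs, and *Acaa2* below it at 44.2 against 317.

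To compare levels between genes, FPKM was computed from the recovered reads, the length of the annotated canonical transcript and the reads on genes with a symbol. In qHSCs *Acaa2* led with 317 ± 51.6 FPKM (mean ± SD, n = 5), followed by *Etfb* with 141 ± 12.7, *Acadvl* with 138 ± 2.93, *Acsl5* with 90.9 ± 4.28 and *Etfa* with 83.4 ± 14.7. *Etfb* and *Acadvl* differed by less than their spread, as did *Acsl5* and *Etfa*, whereas *Acaa2* was above all others. In hypHSCs the order was *Etfb* with 145 ± 45.8, *Ucp2* with 139 ± 55.4, *Etfa* with 91.2 ± 50.7, *Acadvl* with 59.1 ± 29.9 and *Acaa2* with 44.2 ± 11.2, and neighbours in this order overlapped in spread. *Ucp2* thus moved from rank 20 of 38 in qHSCs to rank 2 in hypHSCs, and *Acaa2* from rank 1 to rank 5. At the low end stood *Cpt1b*, *Ehhadh*, *Acsl1* and *Acox2*, all under 1 FPKM in the mean of both groups. Between *Cpt1a* (1.94 ± 1.41 in hypHSCs, 3.49 ± 1.40 in qHSCs) and *Cpt2* (3.25 ± 1.57 and 9.38 ± 1.77), the outer enzyme had the lower transcript level in qHSCs, and in hypHSCs the difference was within the spread.

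**Figure D4:**
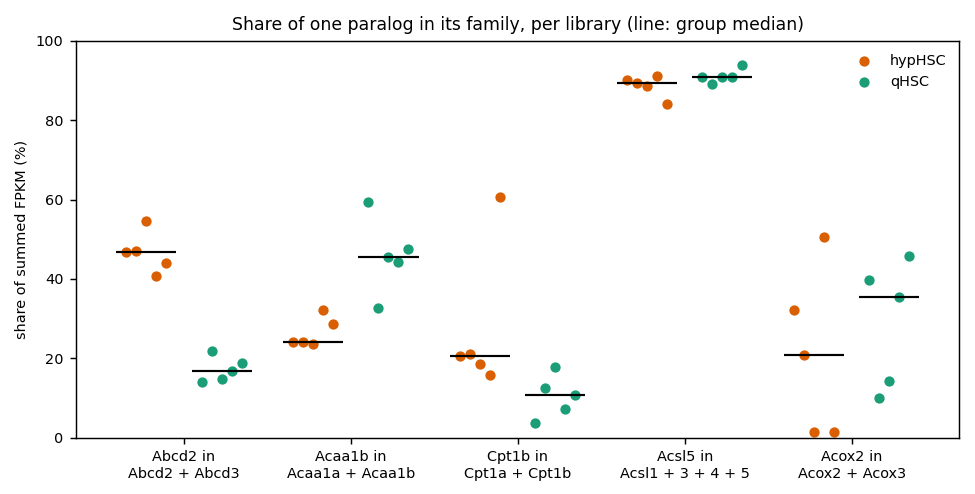
Share of one gene in the summed FPKM of its family (y axis, percent) in each library, with a line at the group median. *Abcd2* holds 40.7% to 54.6% in hypHSCs against 14.1% to 21.9% in qHSCs, and *Acaa1b* 23.7% to 32.1% against 32.7% to 59.3%.

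Within gene families, shares of the summed FPKM do not depend on the scaling of a library. *Abcd2* made up 46.9, 47.0, 54.6, 40.7 and 44.0% of *Abcd2* plus *Abcd3* in hypHSC 1 to 5 and 14.1, 21.9, 14.7, 16.8 and 18.7% in qHSC 1 to 5, without overlap. *Acaa1a* made up 67.9% to 76.3% of the peroxisomal thiolase pair in hypHSCs and 40.7% to 67.3% in qHSCs, again separated, although neither gene alone was a DEG. Since 5.80% of the read-length stretches of one and 10.8% of the other are shared between these thiolases, some of their reads could not be placed. *Cpt1a* made up 39.5% to 84.3% of CPT1 transcripts in hypHSCs and 82.2% to 96.3% in qHSCs, and the low end of the hypHSCs was hypHSC 5. *Acsl5* dominated the measured synthetases in every library, at 84.1% to 91.1% in hypHSCs and 89.0% to 93.9% in qHSCs. In the oxidase pair, the share of *Acox2* beside *Acox3* ranged from 1.47% to 50.6% in hypHSCs and from 9.99% to 45.7% in qHSCs, and showed no separation.

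The 38 genes varied more between hypHSC than between qHSC libraries, with a median SD of log2 values of 0.54 and 0.29. All genes tested had 0.73 and 0.34. This SD depends on the level of a gene, and genes of matched level were not compared. hypHSC 5 was the lowest hypHSC library in 20 of the 38 genes and the highest in 10, against 38.1% and 27.7% of all genes tested, and without it the median SD in hypHSCs was 0.34. Among qHSCs, qHSC 3 was the lowest library in 19 of the 38 and the highest in 0, against 23.4% and 17.0% of all genes. Leaving out hypHSC 5 left 2 higher and 5 lower DEGs, and 7 of the 10 DEGs were called in each of the 10 fits without 1 library. The hypHSCs at 12 weeks of diet alone gave 2 higher and 8 lower DEGs.

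**Figure D5:**
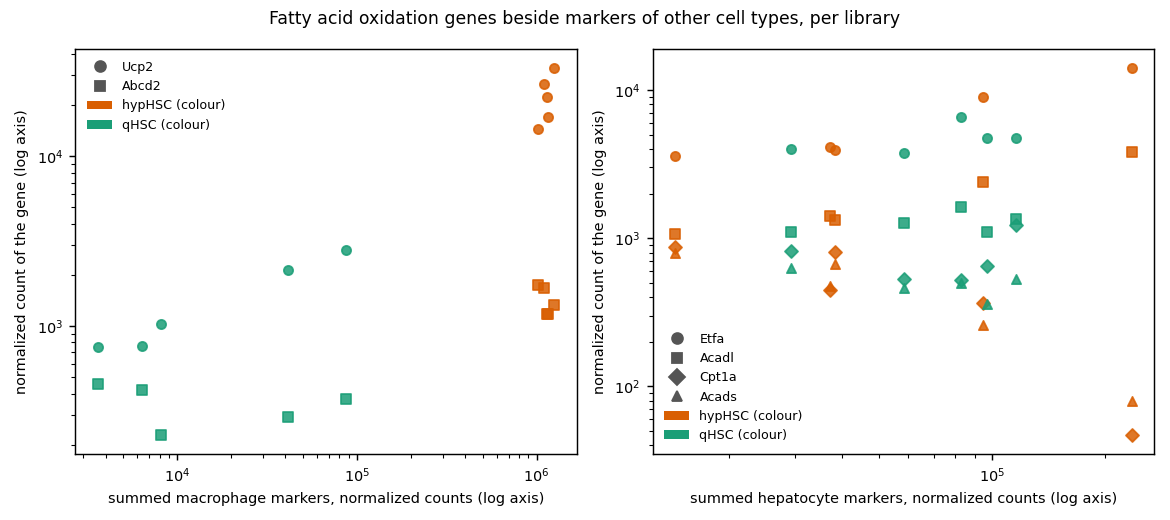
Normalized counts of single genes (y axes, log) against the summed markers of macrophages (left) and hepatocytes (right) in each library (x axes, log); colours mark the groups. Among qHSCs *Ucp2* is highest in the libraries with most macrophage markers, and *Etfa* and *Acadl* are highest, *Cpt1a* and *Acads* lowest, in hypHSC 5 with a hepatocyte sum of 235628.

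Markers of hepatocytes, the main fatty acid oxidising cells of the liver, were found in both groups. These 12 markers summed to 37228, 38363, 14405, 95000.2 and 235628 normalized counts in hypHSC 1 to 5 and 115762, 29247, 58496, 97449 and 82812 in qHSC 1 to 5. *Apoa2* alone held 135759 of the sum of hypHSC 5. Among hypHSCs, *Ahsg*, *Hpx* and *Tat* were not highest in hypHSC 5, and the other markers were. None of the 12 was a DEG by limma, where 2 lower ones had an unadjusted p under 0.05, 1 was lower by DESeq2 and 0 by edgeR, and none was at 0 in all libraries of a group. In hypHSC 5 and 4, which had the highest sums of the hypHSCs, *Etfa* and *Acadl* were at their highest and *Cpt1a*, *Acads* and *Acadvl* at their lowest among hypHSCs, and the part of hepatocyte RNA in these values was not tested. The sinusoidal endothelial markers summed to 691 to 1113 in hypHSCs and 935 to 2199.97 in qHSCs, and 2 rose and 1 fell of the 6 of 7 that were tested. Cholangiocyte markers summed to 436 to 2711 and 4.72 to 56.1, and all 3 tested of 4 were higher DEGs.

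Among 17 regulators of the pathway, 4 rose and 5 fell (median log2 fold change -0.23, against -0.20 over all genes tested; 3 and 3 without qHSC 1 and qHSC 4). For these and the next lists the background is the 17.8% of all genes that rose and the 21.7% that fell. *Ppara*, the receptor that drives fatty acid oxidation genes in hepatocytes, had 13.5, 7.25, 5.82, 11.5 and 49.9 normalized counts in hypHSC 1 to 5 and 98.7, 76.7, 44.1, 56.5 and 29.2 in qHSC 1 to 5, and fell by 2.04 (SE 0.62, adjusted p = 0.018 from limma) from a low level. This call was lost without qHSC 1 (-1.84, adjusted p = 0.0506) and without both qHSC 1 and qHSC 4 (-1.77, adjusted p = 0.11). *Pparg*, the adipogenic receptor of the same family, had 773, 1047, 836, 764 and 1195 and 17.2, 3.41, 0.790, 29.9 and 0, and rose by 7.40 (SE 0.86, adjusted p = 4.07e-05), a size that depends on the added count because qHSC libraries were near or at 0 (8.04 without qHSC 4 and 6.80 without qHSC 5). *Ppargc1a*, a coactivator of mitochondrial genes, had 133, 32.1, 27.4, 75.5 and 6.05 and 0, 0, 10.2, 0 and 5.25, with overlapping groups, and rose by 3.98 (SE 1.002, adjusted p = 0.00692 from limma; 4.58 without hypHSC 5). The size of this rise also depends on the added count, because qHSC 1, 2 and 4 were at 0. The call of *Ppargc1a* was lost without qHSC 1 and qHSC 4 (3.16, adjusted p = 0.0551). *Acacb*, whose product makes the malonyl-CoA that inhibits CPT1, had 0 to 8.28 in hypHSCs and 32.2 to 96.3 in qHSCs, and fell by 4.77 (SE 0.74, adjusted p = 0.000305). The size of this fall depends on the added count, because hypHSC 1, 4 and 5 were at 0. The other DEGs of the list, named after their values were seen, were *Pdk1* (2.80) and *Ppargc1b* (2.61), which rose, and *Rxra*, *Sirt3* and *Pdk2*, which fell by 1.77, 1.17 and 1.95. *Sirt3* was no DEG without hypHSC 5 (-0.82, adjusted p = 0.0015) or without qHSC 1 and qHSC 4 (-1.13, adjusted p = 0.0687). Of the pyruvate dehydrogenase kinases, *Pdk1* was therefore higher and *Pdk2* and *Pdk4* lower in hypHSCs, while *Pdk3* was no DEG (0.29, SE 0.44, adjusted p = 0.611).

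Ketone body genes had 2 rises and no fall among 5 (median 1.13), and no fall by DESeq2, edgeR or an unadjusted p under 0.05. *Bdh2* went from 10.1 ± 7.65 normalized counts in qHSCs to 341 ± 118 in hypHSCs (5.45, SE 0.78, adjusted p = 0.000177), a size that depends on the added count because qHSC 4 was at 0 (4.73 without it). *Oxct1*, the enzyme that activates ketone bodies for oxidation, went from 734 ± 156 to 2602 ± 891 (1.78, SE 0.25, adjusted p = 0.000148). In peroxisomes beyond the 11 genes above, 2 of 6 enzymes of alpha-oxidation and side chain shortening fell and none rose (median -0.61), nor did any by DESeq2, edgeR or an unadjusted p under 0.05. These were *Hacl1*, a lyase of alpha-oxidation (-1.62, SE 0.28, adjusted p = 0.000612), and *Amacr*, a racemase of branched chains (-1.60, SE 0.25, adjusted p = 0.000342). Of 17 genes of peroxisome biogenesis 5 fell and none rose by any of these measures (median -0.45). One that fell was *Pex10*, a ubiquitin ligase of protein import (-1.62, SE 0.51, adjusted p = 0.0213), a call lost without qHSC 5 (-1.46, adjusted p = 0.0563) and without qHSC 1 and qHSC 4 (adjusted p = 0.0756). Without qHSC 1 and qHSC 4, 2 of the 17 were called.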

How the data were processed

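RNA sequencing libraries of 5 hypHSC and 5 qHSC preparations were analysed from 1 deposited table. Per their methods, the authors sequenced unstranded cDNA primed at the poly(A) tail, mapped the reads to mm39 (GRCm39) with STAR 2.7.5a, counted them with featureCounts (Subread 1.5.0) on the Mouse FAST DB annotation, and divided the counts by DESeq2 size factors. The deposited signal is therefore a normalized count per gene, and multiplied by the size factor it gave whole reads for 100% of the values of each library, within 0.0055. A size factor corrects for depth under the assumption that most genes do not change. Of 62322 entries, the 25233 with a symbol were used. log2(normalized count + 1) was compared with limma 3.58.1 (intensity trend, Benjamini-Hochberg adjustment) in R 4.3.3, for genes that had 10 or more normalized counts in 5 or more libraries. For low genes the size of a change depends on the added count and on the method. Beside DESeq2 on the recovered reads, the change was larger here for *Pparg* (7.40 against 6.50) and *Acsf2* (-2.99 against -2.16). It was smaller for *Ppargc1a* (3.98 against 4.14). Adjusted p values in the text are from this fit unless DESeq2 (1.42.0) is named. DESeq2 and edgeR (4.0.16, quasi-likelihood) were run on the recovered reads as alternatives, beside other pseudocounts, filters and scalings, a test against the fold threshold (limma treat), a robust fit, a replicate block, a correction for GC content, a fit limited to the hypHSCs of 12 weeks, and fits that omit 1 library. The steps were tested on simulated data. Leaving out qHSC 1 and qHSC 4 was added after the data had been seen.

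The genes and the lists of pathway and marker genes were chosen with earlier results of these data known. All 38 genes are named, with the value of each library for the DEGs that moved by 1.5 or more on the log2 scale and for 9 core enzymes (*Cpt1a*, *Cpt1b*, *Cpt2*, *Acadvl*, *Acadm*, *Hadha*, *Hadhb*, *Hsd17b4* and *Abcd3*); the values of other genes were added where a library stood apart. Of each list, the 2 DEGs with the largest change are named, with *Ppara*, *Pparg* and *Ppargc1a*; some genes that this rule also takes are not reported here. Exact permutation tests used the 252 arrangements of 5 against 5 libraries, with 0.00794 as the smallest two-sided p. Overlapping exons and shared stretches come from GENCODE on GRCm39, and promoter windows from RefSeq on GRCm38.p6.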

Additional observations from a re-analysis of the deposited data

Results flagged for a closer look

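Of the 76 groups of 5 libraries formed by the 38 genes, 5 had 1 library far from the others by Dixon's criterion (a gap above 0.71 of the range on log2(normalized count + 1)), where chance gives about 1 in 20. In hypHSC 5, *Crat* (107.39 normalized counts, ratio 0.741), *Hsd17b4* (2371.57, ratio 0.790) and *Decr2* (403.83, ratio 0.719) were below the other hypHSCs. *Hadh* was highest in qHSC 1 (2074.45, ratio 0.835), and *Acaa1b* was lowest in qHSC 2 (163.59, ratio 0.725). hypHSC 5 also had the fewest genes with a read and the highest sum of hepatocyte markers among the hypHSCs, and the part of these features in its low values was not tested.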

How the results depend on the processing

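Among 985 values of the 38 genes under 26 alternatives, 899 kept their direction and call, 33 lost the call, 20 gained it and 33 changed sign. The sign changes all concern genes that were not DEGs, and the causes were not tested. Scaling on *Hprt*, *Pgk1* and *Actb* moved the median of all genes from -0.20 to -1.12, giving 1472 higher and 6990 lower DEGs in all. Among the 38 genes it gave 25 DEGs (23 lower), among the mitochondrial 15 (14 lower), the peroxisomal 6 (5 lower) and the synthetases 4. It turned *Cpt1b* (-0.22), *Slc25a20* (-0.85), *Crat* (-0.56), *Acadl* (-0.46), *Hadha* (-0.74), *Echs1* (-0.61), *Etfa* (-0.60), *Etfb* (-0.60), *Acox3* (-0.33), *Hsd17b4* (-0.72) and *Acaa1a* (-0.27). Equal totals (median of all genes -0.54) gave 13 lower DEGs, 8 of them mitochondrial, and 4 peroxisomal DEGs (3 lower), and turned *Slc25a20* (-0.26), *Hadha* (-0.16), *Echs1* (-0.026), *Etfa* (-0.015), *Etfb* (-0.018) and *Hsd17b4* (-0.14).

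limma treat gave 3091 DEGs in all (1465 higher, 1626 lower), 4 of the 38 (2 lower), 2 mitochondrial (1 lower) and 0 synthetases. edgeR and equal upper quartiles each gave 5 lower DEGs and 0 synthetases, TMM 0 synthetases and DESeq2 1. Without qHSC 1 and qHSC 4 there were 5 lower DEGs, 3 of them mitochondrial and 1 a synthetase, and *Abcd3* was 0.030. With 1 library left out in turn, the 38 genes held 7 to 10 DEGs, 5 to 8 of them lower, and the synthetases 0 to 2; *Acads* went from -0.77 to 0.049, *Acox2* from -1.24 to 0.22 and *Acsl1* from -1.08 to 0.081, each highest without hypHSC 5, and *Abcd3* from -0.16 to 0.021. The hypHSCs at 12 weeks turned *Crat* (-0.10), *Hadha* (-0.12) and *Abcd3* (0.074), edgeR *Acadm* (0.0044), *Abcd3* (0.035), *Acox2* (0.10), *Acsl1* (0.030) and *Acsl3* (0.039), DESeq2 *Acox2* (0.075) and TMM *Abcd3* (0.012). *Acaa2*, *Ucp2*, *Abcd2* and *Decr2* were called in all 26 alternatives.

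With the replicate block, 5786 genes were DEGs (2557 higher, 3229 lower) and the calls of all 38 genes were kept. The numbers were not treated as pairs, since same-numbered libraries deviated together with correlations of only 0.00815 to 0.129 and 1 of 5 correlated best with its own number. A mean filter of 100 normalized counts left out *Cpt1b*, *Acox2* and *Ehhadh*, which have no value there. Depth limits *Acox2*, *Acsl1*, *Pdk4*, *Ehhadh* and *Cpt1b*, which had the libraries with the fewest reads.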

Other observations

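The tricarboxylic acid cycle takes up the acetyl-CoA that beta-oxidation releases. Of 16 of its genes, none rose and 1 fell by limma (median log2 fold change -0.21, against -0.20 over all genes tested). DESeq2 and edgeR each called 1 higher and 1 lower, and 2 higher and 4 lower had an unadjusted p under 0.05. *Suclg2*, the GTP-forming succinyl-CoA ligase subunit, fell from 885 ± 156 to 250.4 ± 78.4 normalized counts (mean ± SD, n = 5; -1.85, SE 0.25, adjusted p = 0.000136 from limma), while *Sucla2*, its ATP-forming counterpart, had -0.41 (SE 0.47, adjusted p = 0.498). *Sucla2* was highest in hypHSC 5 (11174 normalized counts). Without this library *Sucla2* had -0.85 (adjusted p = 0.0367 from limma) and *Suclg2* -1.79. The subunits of succinate dehydrogenase, chosen after their values were seen, differed among themselves below the fold threshold. *Sdha* had -0.79 (adjusted p = 0.00694), *Sdhb* 0.94 (adjusted p = 0.0252), *Sdhc* -0.10 (adjusted p = 0.783) and *Sdhd* 0.57 (adjusted p = 0.0197). *Sdhb* was also highest in hypHSC 5 (28371). Without this library the values of *Sdha*, *Sdhb*, *Sdhc* and *Sdhd* were -0.62, 0.67, 0.13 and 0.69.

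Of 4 enzymes that turn propionyl-CoA into succinyl-CoA, *Mmut* fell (-1.18, SE 0.23, adjusted p = 0.00164; -0.99, past the p criterion but short of the fold threshold, without hypHSC 4) and none rose (median -0.78), nor by DESeq2, edgeR or an unadjusted p under 0.05. Of 14 tested of 15 other acyl-CoA enzymes, 2 rose and 3 fell (median -0.62). *Acss1*, the mitochondrial acetyl-CoA synthetase, had 216, 240.2, 166, 222 and 302 normalized counts in hypHSC 1 to 5 and 32.6, 17.0, 3.94, 19.7 and 5.99 in qHSC 1 to 5, and rose by 4.08 (SE 0.55, adjusted p = 0.000112). *Acsf2*, a medium-chain synthetase, had 39.1, 64.2, 57.4, 24.1 and 0 and 133, 215, 164, 144 and 175, and fell by 2.99 on the log2 scale (SE 0.998, adjusted p = 0.0281). The value was -1.90 (adjusted p = 0.00113) without hypHSC 5, which was at 0. The call of *Acsf2* was lost without qHSC 2, 3 or 5 (-2.99 to -2.89, adjusted p = 0.0531 to 0.0591) and without qHSC 1 and qHSC 4 (-3.15, adjusted p = 0.082).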
